A study of Camponotus floridanus with 48 samples.

Results

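In whole bodies of 48 larvae of Camponotus floridanus, the Florida carpenter ant, whose messenger RNA was sequenced, 75 coding transcripts of 67 genes had little or no signal in most larvae and a high signal in at least 1 of them. They are 75 of the 23058 coding transcripts between 601 and 14999 bases long, out of 26314 transcripts in all. They were chosen by their values in the deposited table of normalized signal, which is on the scale of read numbers and not divided by transcript length. Within 1 library its ratio to the estimated reads differed between transcripts. In larva No. 4, XM_011258751.2 had 2525 with 1626 reads and XM_025413838.1 had 4001 with 1457 reads. By counts scaled by library size alone, 13 of the 75 reached 2000 in no larva. A member had a median under 50 over the 48 larvae and a maximum of at least 2000. These values chose the transcripts, so how high they were and in which larvae is given as a description, with no test. A value of 2000 or more is called high in what follows.

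The larvae were females at the terminal stage from a single colony, numbered 30, and each gave its own polyA library. The labels put them in 1 group with no treatment, genotype or age to compare, and give a body length for each. Lengths ran from 4648.07 to 7598.06 µm, with a mean of 6068.93 ± 903 µm (SD, n = 48). For description the larvae are also taken as the 16 shortest (4648.07 to 5376.84 µm), 16 of intermediate length (5395.82 to 6613.40 µm) and the 16 longest (6689.42 to 7598.06 µm).

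In insects with complete metamorphosis the terminal larval stage ends with the moult to the pupa. Pulses of ecdysteroid hormone set off this moult, and many genes are known to be active for a short time around it. Workers of this ant range from small minors to large majors, and growth in the larval stage sets adult body size. The gene table used here gives locus symbols of the assembly Cflo_v7.5 and no product names, so the genes below are reported without a function. The levels come from salmon, a program that divides reads shared by several transcripts of a gene among those transcripts, so the estimate for such a transcript also depends on its sister transcripts.

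Libraries held 6608775 to 63171625 reads. Larvae No. 42 and No. 43 had few, 8928672 and 6608775, and every other library had at least 29813793. On the first principal component of expression, computed without the genes of the 75 transcripts and holding 43.4% of the variance, 15 libraries lay between 27.0 and 113.8, and the 33 others between -61.1 and 6.01. The 15 were larvae No. 3, 4, 6, 9, 15, 17, 29, 31, 32, 33, 36, 38, 49, 53 and 68, and the labels name no batch. They are named here because they held most of the high values below. The part of whatever sets these libraries apart was not tested.

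The 75 transcripts gave 240 high values among the 48 larvae. Larva No. 32 (6559.34 µm) had 39 members high, No. 3 (6892.55 µm) had 29 and No. 4 (6120.74 µm) had 21. Larvae No. 31 (6320.12 µm) and No. 53 (6754.55 µm) had 16 each, and No. 36 (6171.21 µm) and No. 33 (6613.40 µm) had 13 each. In 9 larvae no member was high. Together the 75 transcripts took 0.799% of the reads of larva No. 32, and their share over the 48 libraries had a median of 0.0323% and a minimum of 0.00604%. Of the 75 transcripts, 36 were high in 1 larva, 28 in 2 to 5 larvae and 11 in more than 5, with 17 larvae as the most. For those 11, "few larvae" is a loose description.

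High values clustered in a band of length. The 16 shortest larvae held 25 of the 240 (10.4%), the 16 of intermediate length 130 (54.2%) and the 16 longest 85 (35.4%). The 12 larvae between 6100 and 6900 µm, limits set after the values were seen, held 177 of them (73.8%). These 12 are 25% of the larvae. They held the maximum of 62 of the 75 members (82.7%), and also that of 41.8% of all tested transcripts. Larva No. 46 lies within this band at 6689.42 µm and had only 1 member high, and it is the 1 larva of the band outside the 15 libraries named above. Those 15 libraries held 194 of the high values (80.8%). They also held the maximum of 63 of the 75 members (84%), against 45.5% of all 19714 transcripts tested below. Larva No. 32 held the maximum of 24 members (32%), against 7.32% of all tested transcripts, and No. 4 that of 18 members (24%), against 11.8%. In whole-body RNA, fewer cells that express a gene and less RNA per cell cannot be told apart.

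**Figure D1:**
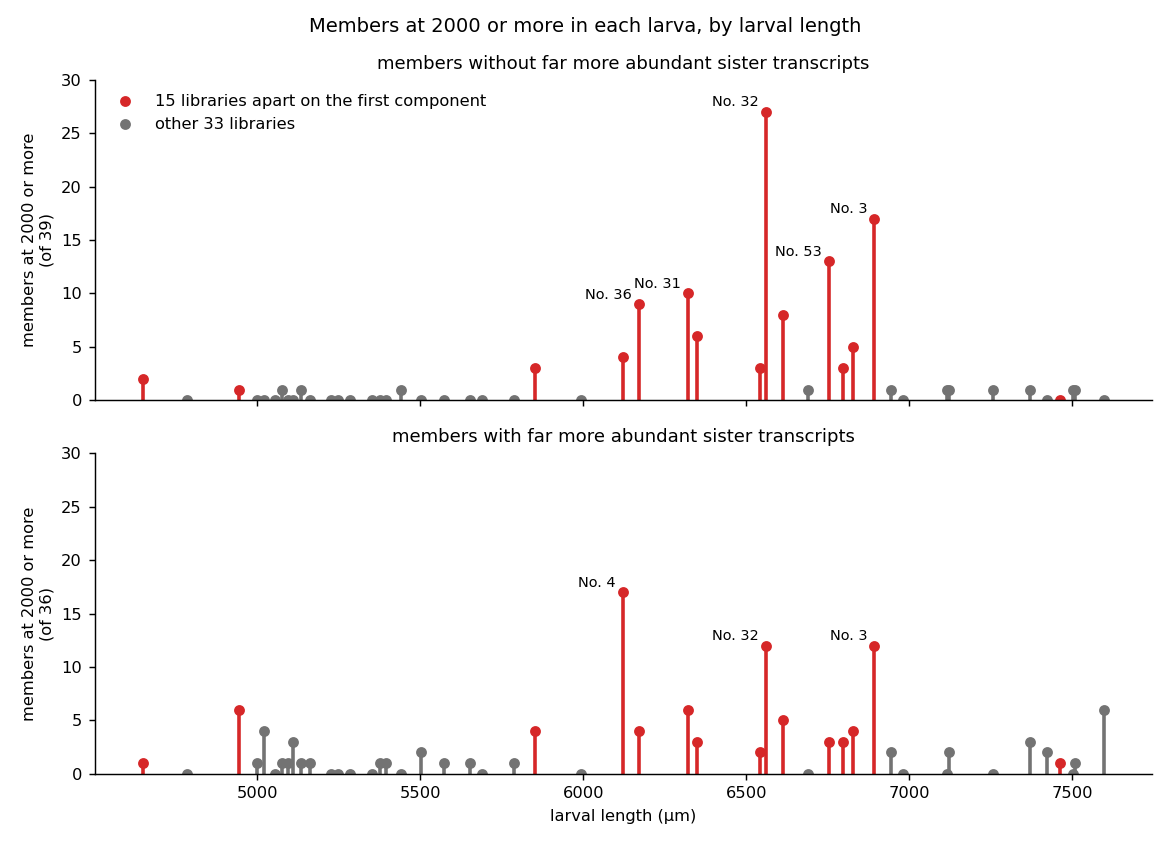
Number of members at 2000 or more in each larva (vertical axis) against larval length in µm (horizontal axis), for 39 members without far more abundant sister transcripts (top) and 36 members with them (bottom). Each line with a point is 1 larva, red for the 15 libraries apart on the first component and grey for the other 33. The tallest lines stand at 27 members in larva No. 32 in the top panel and at 17 in larva No. 4 in the bottom panel.

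Members fell into 2 kinds by what the rest of their gene did. For 36 members, of 29 genes, the summed level of the gene's other transcripts had a median of at least 50 and at least 10 times the member's own, and these are called members with far more abundant sister transcripts. The other 39 members, of 38 genes, did not meet this limit, and 29 of them are the only annotated transcript of their gene. For 36 of the 39 the gene total had a median under 50, so the whole gene was low in most larvae. The 3 exceptions were LOC112638426, LOC105250575 and LOC105256463, with median gene totals of 393.4, 305.3 and 227.7. The 39 were shorter, with a median length of 1444 bases, than the 36, with 4482 bases, and all coding transcripts within the length limits had a median of 2279 bases. High values of the 39 were the more concentrated, with 106 of 122 (86.9%) in the 6100 to 6900 µm band, against 71 of 118 (60.2%) for the 36. No test was made of this difference, because the same values chose the transcripts.

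**Figure D2:**
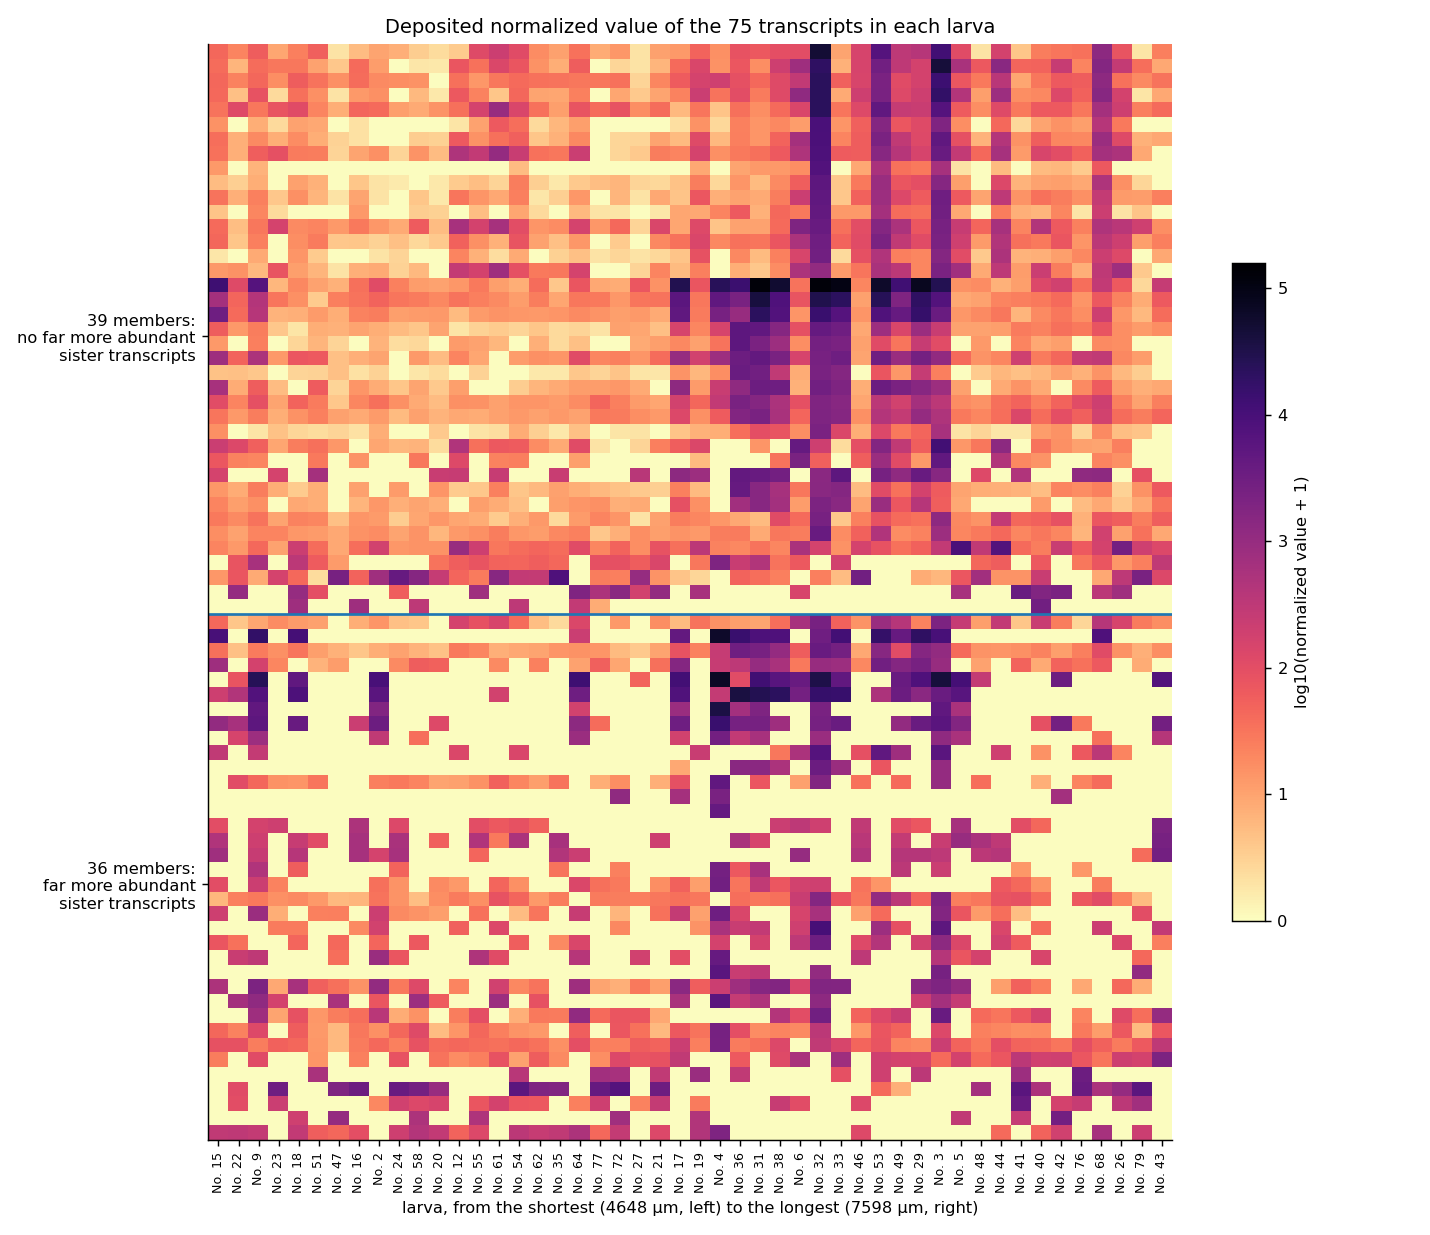
Deposited normalized value of the 75 transcripts, as log10(value + 1) by colour, with 1 row per transcript and 1 column per larva from the shortest to the longest. Above the blue line are the 39 members without far more abundant sister transcripts and below it the 36 with them. Dark columns stand at larvae No. 32 and No. 3, and in the lower block at No. 4.

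LOC105249240 had the highest value of all members. Its single transcript, XM_011254560.3 (885 bases), was high in 13 larvae. It reached 129699 in larva No. 31, 126076 in No. 32, 103225 in No. 33, 76752 in No. 29, 59617 in No. 53 and 52705 in No. 38. It had 29349 in No. 17, 26978 in No. 3, 23851 in No. 4, 14523 in No. 36, 12724 in No. 15, 12338 in No. 49 and 6823 in No. 9. The next larva, No. 68, had 280, so no larva had a value between 280 and 6823. The median over larvae was 37.6 and the lowest value 1.64. All 13 larvae were among the 15 libraries apart on the first component. Per length, its level was 4122 TPM in larva No. 31, against a median of 2.195 TPM.

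LOC105249386, also a gene with 1 annotated transcript (XM_025406851.1, 1647 bases), was high in 10 larvae. Its values were 40184 in larva No. 31, 30808 in No. 32, 24655 in No. 53, 21851 in No. 33 and 19451 in No. 29. They were 8196 in No. 38, 7019 in No. 3, 5488 in No. 17, 4800 in No. 4 and 2344 in No. 36. Here the high and the lower larvae joined without a gap, since No. 49 had 1942 and No. 15 had 657, and the median was 29.9.

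LOC109609707 (XM_025413355.1, 1444 bases) was high in only 3 larvae, which were also among the high larvae of LOC105249240 and LOC105249386. It reached 48445 in larva No. 32, 11984 in No. 3 and 6786 in No. 53, with 1323 in No. 68 and no more than 395 in any other larva. Its median was 27.4. The same larvae led for LOC112639508 (XM_025413692.1), with 23185 in No. 32, 13437 in No. 3, 2158 in No. 53 and 1273 in No. 68, against a median of 36.8. They led also for LOC105254949 (XM_011263941.3), with 22984 in No. 32, 17881 in No. 3, 2312 in No. 53 and 1519 in No. 68, against a median of 21.9. In LOC105258569 (XM_011269908.2, 739 bases) larva No. 3 came before No. 32, with 43649 and 19382. This transcript had 2891 in No. 53, 1635 in No. 68 and 1422 in No. 44, and its median was 39.4.

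**Figure D3:**
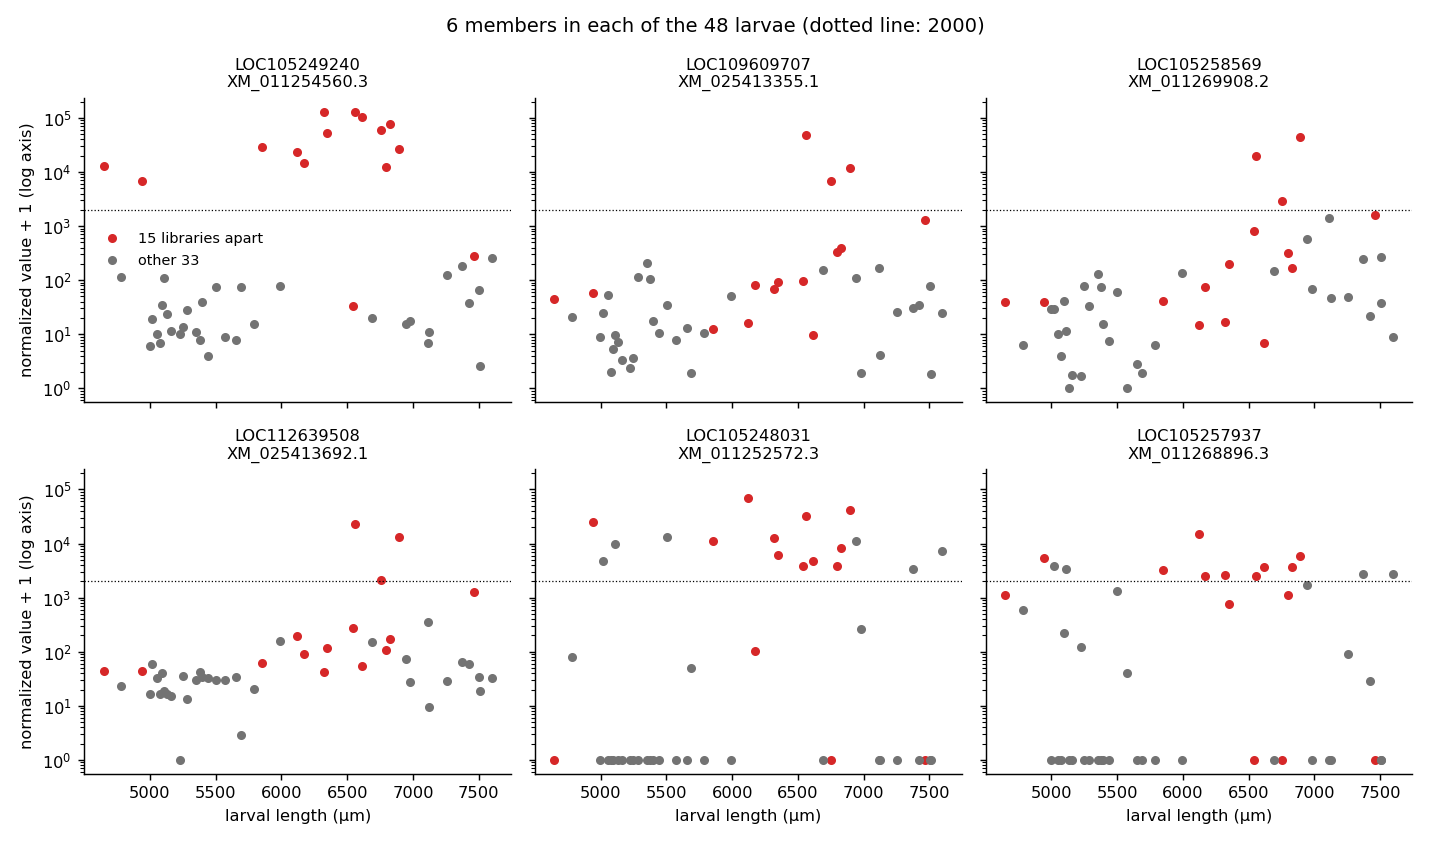
Normalized value + 1 on a log axis against larval length in µm for 6 members, 1 point per larva, red for the 15 libraries apart on the first component and grey for the other 33; the dotted line is 2000. LOC105249240 is at 6823 or more in 13 larvae and at 280 or less in the rest, while LOC109609707, LOC105258569 and LOC112639508 pass 2000 in larvae No. 32, No. 3 and No. 53 alone.

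To ask whether members were high in the same larvae, Spearman's rho of the normalized values over the 48 larvae was taken for every pair, as a description. The points of each pair share their libraries. Between the 39 members without far more abundant sister transcripts the median rho was 0.443, and 26.7% of pairs had a rho of at least 0.6. Between the 36 others the median was 0.108 (3.65% of pairs), and over all pairs of tested transcripts it was 0.004 (4.16% of pairs). Of the pairs among the 39, 59.1% had at least 1 larva in which both were high, and of the pairs among the 36, 38.7% had. Larva No. 32 alone had 27 of the 39 high. Most of the high larvae of a pair were not shared. The larvae in which both were high, as a fraction of those in which either was (Jaccard index), had a median of 0.143 among the 39 and 0 among the 36. Without the 15 libraries apart, the median rho among the 39 was 0.195 and 11.9% of pairs reached 0.6.

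Average-linkage clusters at a rho of 0.6 gave 3 larger groups. The largest held 17 members, 16 of them without far more abundant sister transcripts, with a median rho of 0.738. The median of these members was 7491 in larva No. 32, 2854 in No. 3, 1673 in No. 53 and 498 in No. 68, and the median over all larvae was 15.8. LOC109609707, LOC105258569 and LOC112639508 had its highest values. Its other members, named after their values were seen, had lower maxima. LOC105259485 (XM_011271455.3) had 8909 in No. 32 and LOC105255252 (XM_025411808.1, 4303 bases) had 8482 there. LOC105248042 (XM_025409305.1) had 4914, LOC105257625 (XM_011268368.3) 4410 and LOC109609893 (XM_020027048.2) 3920, again in No. 32. LOC105249850 (XM_011255606.3), like LOC105258569, had its maximum in No. 3, at 2229. The 1 member with far more abundant sister transcripts was XM_011270999.3 of LOC105259203, which held 55.8% of the gene's reads in No. 32 while the gene's total was 9.47 times its median. The second held 14 members, 11 of them without far more abundant sister transcripts, with a median rho of 0.685. Its median was 3145 in larva No. 31, 2778 in No. 32, 2727 in No. 36, 2453 in No. 33 and 2238 in No. 53. LOC105249240 and LOC105249386 belong to it, together with XM_020026839.2 of LOC105249081. Of the members of this second group with lower maxima, named after their values were seen, LOC105248331 (XM_011253075.3) reached 5309, LOC105250292 (XM_025406740.1) 5276 and LOC105251998 (XM_011259157.3) 3752, all in No. 36, and LOC105251297 (XM_011257985.3) reached 4415 in No. 31. The third group held 5 members, all with far more abundant sister transcripts, and its median was 15095 in larva No. 4, 5346 in No. 9 and 4912 in No. 3. Larva No. 32 was among the 5 larvae of highest median in both of the first 2 groups. The remaining members fell into clusters of 1 to 3, and some of these were high in the same larvae as the largest group. Named after their values were seen, XM_011270199.3 of LOC105258731, XM_011268335.3 of LOC105257587 and XM_011254885.3 of LOC105249429 each stood alone. Their highest values were in No. 32, No. 3 and No. 53. In a cluster of 3, both transcripts of LOC105251055 had their maxima in No. 3, at 11830 (XM_025413964.1) and 4537 (XM_025413965.1). Their next value was in No. 6, at 4229 and 2338. In No. 32 the first of the pair had 203.

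Some members peaked outside the band and outside the 15 libraries. These were picked after their values were seen. LOC105248039 (XM_011252584.3) was high in larvae No. 5 (6943.37 µm), No. 44 (7114.60 µm) and No. 26 (7503.35 µm), with 9209, 7070 and 2723, and had 155 in No. 32 and 32.3 in No. 31. LOC105251107 (XM_025409025.1) was high in larvae of quite different length, with 8156 in No. 35 (5440.79 µm), 4059 in No. 24 (5132.63 µm), 2934 in No. 46 (6689.42 µm), 2448 in No. 47 (5076.51 µm) and 2276 in No. 79 (7508.29 µm). LOC105252710 (XM_011260234.2) had 2921 in No. 40 (7255.63 µm) and no more than 790 elsewhere.

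Some members were neighbours in the gene table. Of the 67 genes, 17 lay within 10 genes of another, in 7 runs. Closeness was taken from the order of the gene table alone, which gives the chromosome as unknown. How many of as many other genes would lie so close was not counted, so the 17 is a description only. The genes in the next sentences were named after their values were seen. The longest run held 5 genes, LOC105255269, LOC105255270, LOC109609707, LOC105254657 and LOC105249113, each with 1 annotated transcript and each with its maximum in larva No. 32. In larva No. 32 their values were 5262, 9319, 48445, 22875 and 7491 in gene order. In larva No. 3 they were 1585, 1869, 11984, 6608 and 633, and in larva No. 53 they were 906, 1679, 6786, 4803 and 576. The medians over the 48 larvae were 4.30, 8.74, 27.4, 39.7 and 0. Beside the run, LOC105248510 had 4964 in larva No. 32 and 3402 in No. 3 over a median of 535, so it was too high in most larvae to be a member. LOC105248511, next to it, had 2267 in No. 32 over a median of 1537. Whether the 5 genes resemble each other in sequence, and so share reads, could not be examined here, as no sequences were used.

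**Figure D4:**
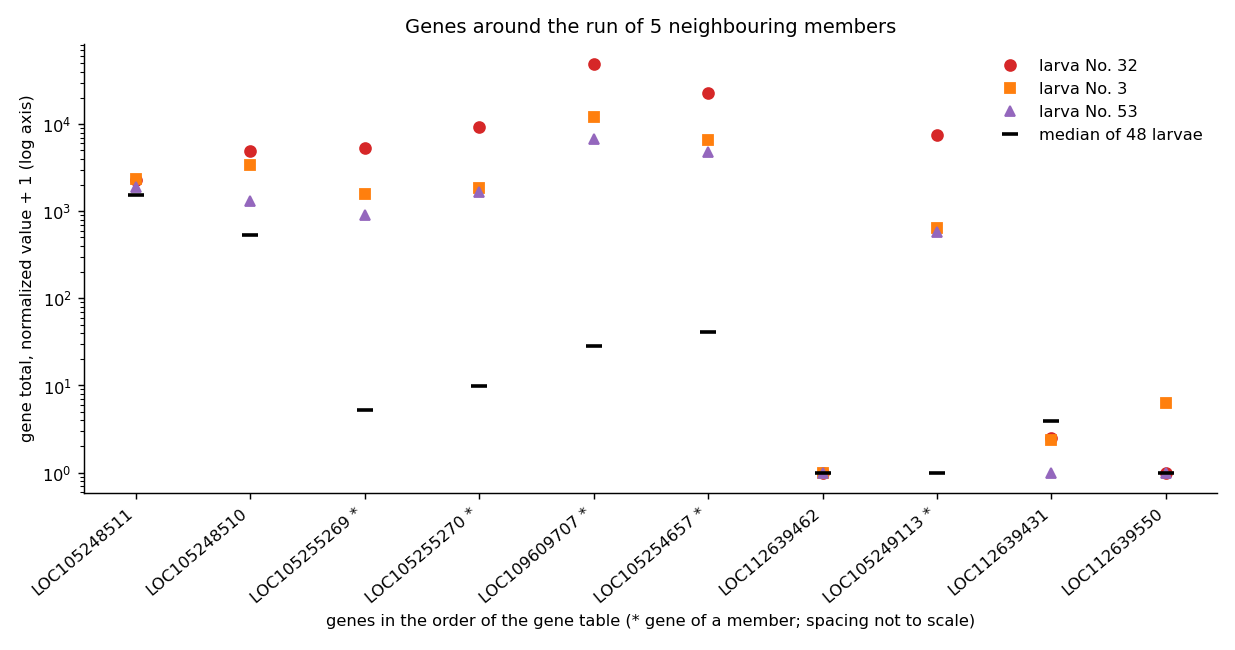
Gene total as normalized value + 1 on a log axis for the genes around the longest run, in the order of the gene table with spacing not to scale; a star marks the gene of a member. Circles are larva No. 32, squares No. 3, triangles No. 53, and black bars the median of 48 larvae, with No. 32 the highest for all 5 starred genes and at 48445 for LOC109609707.

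In a second run, LOC105255502 (XM_020028861.2) reached 21566 in larva No. 31, 16659 in No. 29 and 14979 in No. 32 and was high in 11 larvae. Its neighbour LOC105255479 totalled 4968 in No. 31, 4292 in No. 32 and 5148 in No. 53, over a median of 11.7. On the other side of it LOC105255480, no member, had 8689, 7432 and 6979 in the same larvae over a median of 362. The loci of LOC105255479 (positions 603723 to 613229) and LOC105255502 (610533 to 613273) overlap. Whether they share reads was not tested. Closeness did not always go with the same larvae. LOC105248031 and LOC105248039 share a run, yet had their maxima in larvae No. 4 and No. 5.

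The 36 members with far more abundant sister transcripts had their maxima in larva No. 4 (17 members), No. 32 (6) and No. 43 (4) above the others. In the larva of the maximum, the total of the gene was 0.762 to 409 times its own median over the 48 larvae. The total was under 1.5 times its median for 8 members, 1.5 to 5 times for 22 and at least 5 times for 6. The 6 were of LOC105251157 (409 times), LOC105249429 (77.6), LOC105252146 (27.6), LOC105257587 (24.8), LOC105259203 (9.47) and LOC105257276 (5.3), so in these genes the total was also high in that larva. The member took 0.308% to 100% of its gene's reads there, with a median of 37.1%, and 23 of the 36 took at least 30%. Of the 36, 23 were under 3 reads in 24 or more larvae, so for these the lower values are near the limit of detection.

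LOC105248031 was at a high level in every larva, while its member XM_011252572.3 (4147 bases) was at 0 in many. How far this rests on the division of reads among sister transcripts was not tested. The member was high in 17 larvae, the most of any member, and had a median of 0. The deposited table lists it at 0 in 27 larvae. One of them is No. 15, where the deposited table and the counts disagree, since the count table gives 435.5 reads, and in No. 22 the deposited value is 78.95 with 0 reads. Its values were 69873 in larva No. 4, 41439 in No. 3, 32545 in No. 32 and 25096 in No. 9, which were 61.5%, 55.7%, 36.5% and 41.4% of the gene's reads. The lowest of the 17 was 3384 in No. 42 and the highest of the rest 264 in No. 48. The gene as a whole ran from 49475 to 113879, a range of 2.30-fold, with its maximum in No. 4. Its main other transcript, XM_011252574.3, had a median of 30289 and was at its lowest, 10667, in No. 4. The 17 larvae were No. 2, 3, 4, 5, 6, 9, 17, 18, 29, 31, 32, 33, 38, 42, 43, 49 and 64, of which No. 2, 5, 18, 42, 43 and 64 are not among the 15 libraries.

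In LOC105257937 the member XM_011268896.3 (7991 bases) was high in 13 larvae and held 91.2% of the gene's reads in larva No. 4, 86.6% in No. 3 and 85.2% in No. 43. Its values there were 15095, 5978 and 2743. The gene's median was 5573, its range 3226 to 16565, and the member was at 0 in 24 larvae. In LOC105257587 the member XM_011268335.3 had 10315 in larva No. 32, 5224 in No. 3 and 839 in No. 53, with 84.1%, 90.7% and 22.6% of the gene's reads, and the gene totalled 12269, 5758 and 3713 over a median of 494.5. LOC105251157 moved as a whole as well: its total was 28924 in larva No. 32, 21861 in No. 3 and 12844 in No. 53, over a median of 70.8. Its member XM_025414119.1 took 23.8%, 27.4% and 37.55% of the reads in those larvae. The sister transcript XM_025414120.1 carried most of the rest and missed the rule with a median of 54.0.

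**Figure D5:**
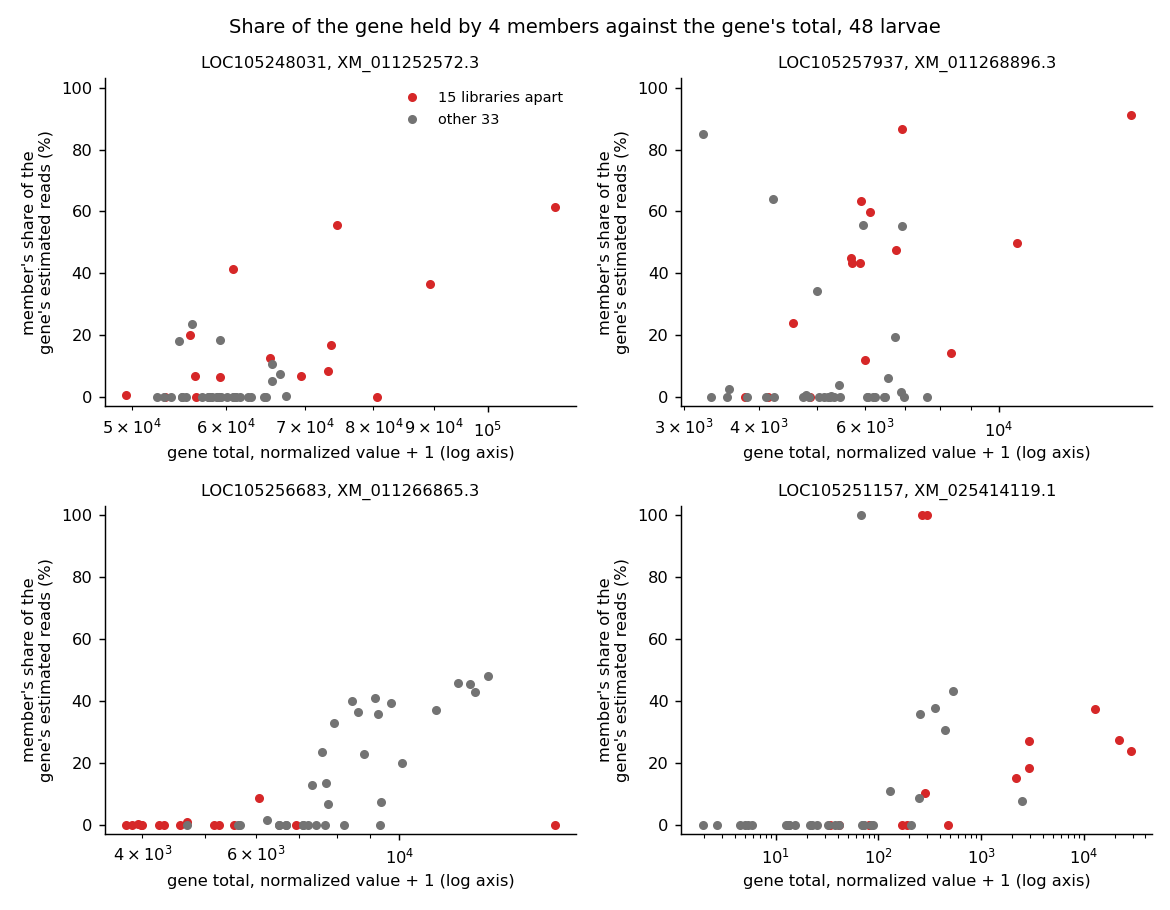
Share of the gene's estimated reads held by 4 members (vertical axis, %) against the gene's total as normalized value + 1 on a log axis (horizontal axis), 1 point per larva, red for the 15 libraries apart on the first component and grey for the other 33. In LOC105248031 the share goes up to 61.5% over a 2.30-fold range of the total, while in LOC105251157 the total itself reaches 28924.

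LOC105249081 has 33 annotated transcripts and 7 of them were members. The gene was abundant in every larva, with a total of 116337 to 1351957 and the highest total in No. 4. Each member took a small share of it at its maximum, from 0.308% to 5.75%. XM_020026839.2 was high in 15 larvae, with 60620 in No. 4, 19930 in No. 29 and 18255 in No. 9, and was at 0 in 32. XM_025407161.1 was high in 14, with 38207 in No. 36, 27628 in No. 31 and 21455 in No. 38, and was at 0 in 28, while its deposited value was 203.6 in No. 15 against 1917 reads and 452.2 in No. 22 against 0.005 reads. XM_020026817.2 was high in 5, with 36801 in No. 4 and 4912 in No. 3, and was at 0 in 38, 1 of which is No. 18 with 189.5 reads in the count table. These 3 transcripts have the same length, 6558 bases, and members of a gene with so many transcripts share its reads, so their separate values are uncertain.

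LOC105256683 stood apart in its larvae. Its member XM_011266865.3 was high in 13 larvae, No. 16, 21, 23, 24, 41, 47, 54, 58, 62, 72, 76, 77 and 79, none of them among the 15 libraries. The highest were 6622 in No. 72, 5870 in No. 41 and 5648 in No. 54, with 48.2%, 45.5% and 45.7% of the gene's reads. Members with their maximum in larvae No. 42 and No. 43, whose libraries are shallow, rested on 268 to 566 reads there. Larva No. 43 held the maximum of 5.33% of the members and of 6.19% of all tested transcripts. An example is XM_011263286.3 of LOC105254535, which took 100% of its gene in No. 42 with 566 reads while the gene was at 1.07 times its median.

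The rule did not use length, and the slope of each transcript with length was tested across all 19714 transcripts that passed the filter on low counts (quasi-likelihood test of edgeR, p adjusted by Benjamini-Hochberg over all of them and called under 0.05, n = 48). Of the 75 members 67 passed the filter. A rising slope was called for 31 members, against a background of 7.16% of all tested transcripts. A falling slope was called for 0 members by edgeR, with 0 at an unadjusted p under 0.05, against a background of 6.48%. DESeq2 also called 0 members falling, against 1436 of all 19714 transcripts. With limma-voom (background 7.72%) and with a rank correlation (background 9.34%) 1 member was called falling, LOC105258630 (XM_011270052.3) in both. The median slope was 1.67 log2 per mm over the members tested and -0.00 over all transcripts. Of the 37 tested members without far more abundant sister transcripts 26 rose, and of the 30 others 5 rose. The slopes rest on the same larvae whose high values chose the members, most of which are longer than the mean, so these counts do not bear on larvae outside this series.

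The count of rising members depended on the test and on the libraries. It was 10 with limma-voom (background 6.60%), 19 with the rank correlation (background 8.08%) and 10 of 55 tested without the 15 libraries apart (background 7.40%). Without larvae No. 3 and No. 32 it was 23 of 65 (background 6.42%), and leaving out each larva in turn it was 26 to 34, lowest without No. 3. The 10 called without the 15 libraries were all among the 31. Of the 31, 5 did not pass the filter on low counts without those libraries and were not tested there. With no filter on low counts 33 of 75 members rose (background 7.49%), and with counts summed per gene 35 of 65 member genes rose (background 16.8%) and 4 fell (background 13.9%). In the fits with no filter, without the 15 libraries and without larvae No. 3 and No. 32, edgeR called 0 members falling, with 0, 1 and 0 at an unadjusted p under 0.05 (backgrounds 6.1%, 8.76% and 6.37%).

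The 6 rising members of smallest p were each the 1 annotated transcript of their gene, and each passed the test with every larva left out in turn. LOC105258569 rose with a slope of 3.87 ± 0.68 log2 per mm (SE, edgeR adjusted p = 6.79e-05). Its lowest, median and highest values were 0, 28.5 and 130 in the 16 shortest larvae, 0, 15.4 and 19382 in the 16 of intermediate length and 7.77, 206 and 43649 in the 16 longest. The groups overlap widely, and it is the median of the longest that stands above the others. Without the 15 libraries its slope was 1.73 (edgeR adjusted p = 0.00427). Over the 10 alternative fits per transcript with a slope per mm, its adjusted p ran from 2.37e-15 (DESeq2) to 0.0392 (limma-voom). The rank correlation, log2 length, gene totals and the fits leaving out 1 larva are not among these 10.

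LOC105250037 (XM_011255898.3) rose by 3.65 ± 0.69 log2 per mm (edgeR adjusted p = 0.000195), with medians of 1.11, 2.81 and 21.9 from the shortest to the longest larvae and a maximum of 2921 in No. 32. Its median was 3.5 reads, and it passed the filter on low counts only with the 15 libraries included. It was therefore not tested without them, and its slope rests on them. LOC105255269, of the run of neighbours, rose by 3.82 ± 0.75 (edgeR adjusted p = 0.000336), with medians of 2.49, 3.70 and 12.5. It did not rise with the deposited values as log2(value + 50) (limma adjusted p = 0.0725). LOC105255269 too passed the filter only with the 15 libraries included, so it was not tested without them. LOC112639508 rose by 3.33 ± 0.66 (edgeR adjusted p = 0.000339), with medians of 25.6, 47.7 and 68.3, but not in the fit without the 15 libraries (adjusted p = 0.0633), with limma-voom (adjusted p = 0.139) or with log2(value + 50) (limma adjusted p = 0.0568). LOC105254949 rose by 3.70 ± 0.73 (edgeR adjusted p = 0.000356), with medians of 13.4, 21.9 and 145, but not with limma-voom (adjusted p = 0.164). LOC105251125 (XM_011257670.3) rose by 2.60 ± 0.52 (edgeR adjusted p = 0.000398), with medians of 4.81, 24.4 and 107, and by 1.57 without the 15 libraries (adjusted p = 0.00683). In the last of these the high larvae were No. 32 with 3009, No. 53 with 2217 and No. 3 with 2187.

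The members with the highest maxima did not all follow length. LOC105249240 had a slope of 1.80 ± 0.96 log2 per mm (edgeR adjusted p = 0.242). Its 13 high larvae included No. 15, the shortest of all. XM_011252572.3 of LOC105248031 had a slope of 0.47 ± 0.91 (edgeR adjusted p = 0.839) and XM_011268896.3 of LOC105257937 one of 0.21 ± 0.67 (edgeR adjusted p = 0.913). LOC105249386 rose by 2.92 ± 0.93 (edgeR adjusted p = 0.0269), but its slope was -0.10 without the 15 libraries (adjusted p = 0.791), and it was not called with limma-voom (adjusted p = 0.859) or with log2(value + 1) and log2(value + 50) (limma adjusted p = 0.423 and 0.364).

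A bend with length was tested with a natural spline over a line. It was called for 44 of the 67 members, against a background of 29.8% of all tested transcripts (edgeR, at an adjusted p of 0.05). Like the slopes, the bends rest on the same larvae whose high values chose the members, so the difference from the background is a description only. Without the 15 libraries apart edgeR called 0 of 55 members and 0 of 19661 transcripts, with 1 member at an unadjusted p under 0.05. A quadratic in length instead of the spline passed for 4 of the 67 members and for 90 of all 19714 transcripts. Since 11 of the 12 larvae between 6100 and 6900 µm are among the 15, that fit also leaves out most larvae of the lengths at which the members were high.

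A small part of the transcripts outside the rule followed the largest group closely. Of 19647 transcripts that are no member, 215 had a Spearman's rho of at least 0.6 with the median profile of its 17 members over the 48 larvae, and 38 had at least 0.8. Among all pairs of tested transcripts 4.16% had a rho of at least 0.6, a larger share than 215 of 19647. The measures are unlike, since the 215 were set against a median profile of 17 members and not against a single transcript. The 5 most alike were of LOC105249886 (rho 0.963), LOC105250901 (0.957), LOC105254830 (0.956), LOC105251660 (0.956) and LOC105251530 (0.954). LOC105250901 had 727836 in larva No. 3 and 590370 in No. 32, over a median of 6520, and took 1.34% and 0.945% of the reads of those libraries. LOC105249886 had 43593 in No. 32 and 35685 in No. 3 over a median of 219. All 5 had a median above 50, which kept them out of the rule.

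The limits of the rule cut through a continuum. Just inside the limit on the maximum lay LOC105250575 (2025), LOC105258630 (2025) and LOC105257451 (2062), and just outside it LOC105249645 (1982), LOC112638823 (1978) and LOC105251306 (1943). Just inside the limit on the median lay LOC105256784 (49.3), LOC105258630 (46.3) and LOC105255252 (46.0), and just outside it LOC105251157 (54.0), LOC105258881 (56.1) and LOC105257234 (59.9).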

How the data were processed

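Per the labels' protocols, polyA RNA of 48 whole larvae was made into directional libraries and sequenced in paired reads. Tools named in the submitters' processing notes, without roles, are Trim Galore 0.6.7, bcl2fastq 2.20, DESeq2, DESeq and Salmon. Salmon's index and strand setting, and the build, were not given in the sources used here. Per larva, the authors deposited estimated counts (expected counts) and TPM per transcript with salmon's file headers, and for the series a table of normalized signal per transcript. A missing cell of that table was taken as 0. Its values at 50 or more for the members lay within 2-fold of the counts scaled by library and larva, except 11 of 1125 in 4 larvae (No. 15, 18, 22 and 27), and each of the 240 high values was 0.711 to 1.90 times the scaled count.

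Transcripts were assigned to genes through the RefSeq table of Cflo_v7.5, by accession for 25811 of them. A transcript that names no gene took at most 0.00124% of a library and was left out. Estimated counts were rounded, filtered with filterByExpr, scaled by TMM and tested in edgeR 4.0.16 with length in mm. P-values measure the spread between animals of 1 colony. Alternatives used limma 3.58.1, DESeq2 1.42.0 and 100000 permutations of length for the rank correlation, in R 4.3.3 and Python 3.11.15. The scripts were tested on simulated data.

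Members, tests and lists were chosen with earlier results of these data known. Transcripts named are the 10 of highest maximum, the 6 rising of smallest p and the 5 high in most larvae, with ties. Up to 6 falling members were to be named as well, but edgeR called 0 members falling. Also named are the 3 of highest maximum in each of the 3 largest groups, 3 on each side of each limit and the 5 most alike non-members. Others were named after their values were seen, as the text says. Product names and sequences were not used here.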

Additional observations from a re-analysis of the deposited data

How the results depend on the processing

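The 75 members became 170 with a maximum of at least 1000 and 37 with at least 4000. Medians under 20 and under 100 gave 50 and 97, and counts scaled by library size gave 61, of which 59 were shared. The 36 members high in 1 larva became 4 with 500 as the limit, 7 with 20% of each transcript's maximum and 9 without the 15 libraries apart on the first component. The share of high values in the 16 larvae of intermediate length, 54.2%, became 46.9% with 500 as the limit and 15.2% without the 15 libraries. The 31 rising members became 10 with limma-voom, 19 with the rank correlation and 10 without the 15 libraries. They became 17 and 12 with the deposited values as log2(value + 1) and log2(value + 50), where 1422 and 1511 of all 19714 transcripts rose. Other scalings, no filter, DESeq2, log2 length and gene totals gave 31 to 38. The fits without larvae No. 42 and No. 43 and without No. 3 and No. 32 gave 34 and 23, and leaving out each larva in turn gave 26 to 34. Over all tested transcripts or genes, the fits with all or all but 2 larvae called 1262 to 1987 of 10513 to 24627 rising. Those leaving out 1 larva called 1272 to 1608 of 19653 to 19835. The 0 falling members became 1 with limma-voom, with log2(value + 1) and with the rank correlation, and 4 with gene totals. With log2(value + 1) 1682 of all 19714 transcripts fell. The count of members stayed 0 with each larva left out, while 1162 to 1482 of all tested transcripts fell. The 44 curved members became 4 with a quadratic term, which called 90 of 19714 transcripts, and 0 without the 15 libraries, where 0 of 19661 were called. They became 26 without larvae No. 3 and No. 32 (background 20.8%), a fit chosen after seeing the data. The causes of these changes were not tested. The number of members without far more abundant sister transcripts was 37 to 39 under each alternative. No paired analysis was possible because the larvae form 1 group. Each value rests on 1 animal and 1 library, and sister transcripts share reads.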

Other observations

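A few transcripts met the limits on median and maximum but lay outside those on name or length. The non-coding transcript XR_889609.2 of LOC105256728 (287 bases) was high in 13 larvae, with a maximum of 36913 in larva No. 31 and a median of 37.5. The pseudogene LOC105247807 was high in 2 larvae, with 16104 in No. 32 and 4954 in No. 3, over a median of 32.7. In the gene table it lies next to the member LOC105249381, which had 2196 in No. 32 and 588 in No. 3. Whether the pseudogene and this member share reads was not tested. The coding transcript XM_011258616.3 of LOC105251664 (510 bases) was high in 5 larvae, with 5314 in No. 32. LOC105259192 had 3 coding transcripts of 28201 to 31332 bases that were each high in larva No. 4 alone, at 2061 to 2514.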
